A study of Mus musculus with 2 samples.

Results

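The genes described here are 10 genes of the NF-kB system, the transcription factor subunits Rel, Rela, Relb, Nfkb1 and Nfkb2, the inhibitors Nfkbia, Nfkbie, Nfkbiz and Bcl3, and Tnfaip3. They were chosen by name for their role in the pathway, out of 21627 protein-coding genes of the RefSeq annotation of GRCm38 (mm10). IRF4 binding was mapped by ChIP-seq, in which DNA bound by a protein is pulled down with an antibody and sequenced, in CH12.LX, an immortalized B-cell lymphoma line from a female mouse of strain B10.H-2aH-4bp/Wts. All samples form 1 group of 2 biological replicates of this line. The labels name no treatment and no genetic change, give the age as unknown, and do not say whether the replicates were separate cultures. A peak summit was assigned to a gene when it lay in the gene body or within 10 kb of either end. By this rule 82 of the 44058 summits of the optimal list belong to the 10 genes. The optimal list is the depositors' set of peaks that passed a threshold on the irreproducible discovery rate (IDR). IDR asks whether peaks keep their order between 2 sets of peaks. Both replicates went into the list, but a place in it is not taken here to mean that each replicate had the peak.

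NF-kB is a family of dimeric transcription factors that B cells use to respond to antigen, CD40 and Toll-like receptor signals. Rel, Rela and Relb encode subunits with a transactivation domain, while Nfkb1 and Nfkb2 encode precursors that are processed to DNA-binding subunits without one. IkB proteins such as those of Nfkbia and Nfkbie hold the dimers in the cytoplasm until they are degraded, the atypical IkB proteins of Nfkbiz and Bcl3 act in the nucleus, and Tnfaip3 encodes a ubiquitin-editing enzyme that ends the signal. Several of these inhibitor genes are themselves known NF-kB targets. IRF4 is an interferon regulatory factor of activated B cells and plasma cells, its gene is a known target of Rel, and it binds DNA mostly beside partner factors.

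The signal of a peak is the depositors' value from their peak caller. Its scale is not stated and the read depth is unknown, so signals rank and describe peaks within 1 list. Signals of the 2 replicates are set side by side at matched summits only. A difference between them is not read as a difference in binding. Signals of the optimal list ran from 6.92 to 480.4 with a median of 41.4, and the strongest 10% began at 116.0. With 1 group and 2 replicates there is no contrast to test, and each count is set beside the same count over all genes or all peaks.

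The sequences under the summits that carry the results are shown first. They were read from the mm9 genome at the separate mm9 list of 27671 peaks, because no mm10 genome sequence was used here. Each is 101 bases long with the summit in the middle. Peaks are numbered by signal within a gene. Capitals mark a match to a searched motif, written as its reverse complement where the match is on the minus strand, and the E-box CAGCTG is left in lower case. Those shown are EICE, the ETS-IRF element of GGAA and GAAA 2 bases apart; ISRE, with GAAA at both ends of the same gap; the AP-1 site TGANTCA; and the NF-kB site. The set holds the strongest peaks of Rel, Nfkb1, Nfkbia, Tnfaip3 and Bcl3, and Nfkb1 peak 2 for its high signal. The further peaks of Rel, Nfkb1, Nfkbia, Nfkbie and Bcl3 show an IRF element or an NF-kB site. Nfkbie peak 2 lies downstream of that gene, towards the start of Slc35b2.
Rel strongest peak (chr11:23678848-23678948, plus strand): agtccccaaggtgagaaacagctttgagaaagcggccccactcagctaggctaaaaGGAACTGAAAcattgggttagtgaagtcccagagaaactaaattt
Rel peak 2 (chr11:23654416-23654516, plus strand): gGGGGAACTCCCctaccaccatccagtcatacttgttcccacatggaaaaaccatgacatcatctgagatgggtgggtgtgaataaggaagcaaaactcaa
Nfkb1 strongest peak (chr3:135291923-135292023, plus strand): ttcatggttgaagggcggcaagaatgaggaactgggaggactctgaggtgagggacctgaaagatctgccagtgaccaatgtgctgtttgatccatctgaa
Nfkb1 peak 2 (chr3:135328791-135328891, plus strand): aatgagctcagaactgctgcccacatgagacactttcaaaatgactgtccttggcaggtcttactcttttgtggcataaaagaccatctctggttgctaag
Nfkb1 peak 3 (chr3:135277466-135277566, plus strand): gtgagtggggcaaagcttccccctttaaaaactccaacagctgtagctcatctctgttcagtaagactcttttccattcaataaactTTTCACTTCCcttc
Nfkbia strongest peak (chr12:56588016-56588116, plus strand): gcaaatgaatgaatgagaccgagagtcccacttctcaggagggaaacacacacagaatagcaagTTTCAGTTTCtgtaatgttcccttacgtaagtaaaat
Nfkbia peak 3 (chr12:56585502-56585602, plus strand): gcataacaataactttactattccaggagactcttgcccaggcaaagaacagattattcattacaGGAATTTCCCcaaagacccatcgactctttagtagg
Nfkbia peak 5 (chr12:56592894-56592994, plus strand): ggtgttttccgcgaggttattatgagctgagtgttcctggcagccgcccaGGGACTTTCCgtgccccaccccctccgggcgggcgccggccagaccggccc
Nfkbie peak 2 (chr17:45700273-45700373, plus strand): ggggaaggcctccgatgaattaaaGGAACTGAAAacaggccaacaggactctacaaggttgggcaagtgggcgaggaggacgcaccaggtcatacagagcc
Nfkbie peak 7 (chr17:45692487-45692587, plus strand): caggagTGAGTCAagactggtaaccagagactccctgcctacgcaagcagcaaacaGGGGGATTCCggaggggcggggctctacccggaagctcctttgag
Tnfaip3 strongest peak (chr10:18729148-18729248, plus strand): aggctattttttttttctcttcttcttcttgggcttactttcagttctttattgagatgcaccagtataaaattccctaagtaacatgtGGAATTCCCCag
Bcl3 strongest peak (chr7:20402909-20403009, plus strand): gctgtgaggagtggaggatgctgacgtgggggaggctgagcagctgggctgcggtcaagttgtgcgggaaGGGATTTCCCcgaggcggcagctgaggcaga
Bcl3 peak 3 (chr7:20409689-20409789, plus strand): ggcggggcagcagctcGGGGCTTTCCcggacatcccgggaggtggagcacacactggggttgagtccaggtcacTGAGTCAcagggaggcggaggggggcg

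Of the 10 genes, 9 had at least 1 optimal summit, beside 62.3% of all protein-coding genes. Rela was the exception. Many of them had a large number of summits: 5 of the 10 (Rel, Nfkb1, Nfkbia, Nfkbie and Tnfaip3) had 10 or more, beside 2.58% of all genes. The median was 9.5 summits a gene, against 1 over all genes, and 18.6 summits per 100 kb of gene and flanks, against 2.34. A summit of the strongest 10% was found at 4 of the 10 (Rel, Nfkb1, Nfkbia and Tnfaip3), beside 12.4% of all genes. The signals of the single summits lay near those of the whole list: 9 of the 82 (10.98%) were in the strongest 10%, and the median was 45.6 against 41.4.

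**Figure D1:**
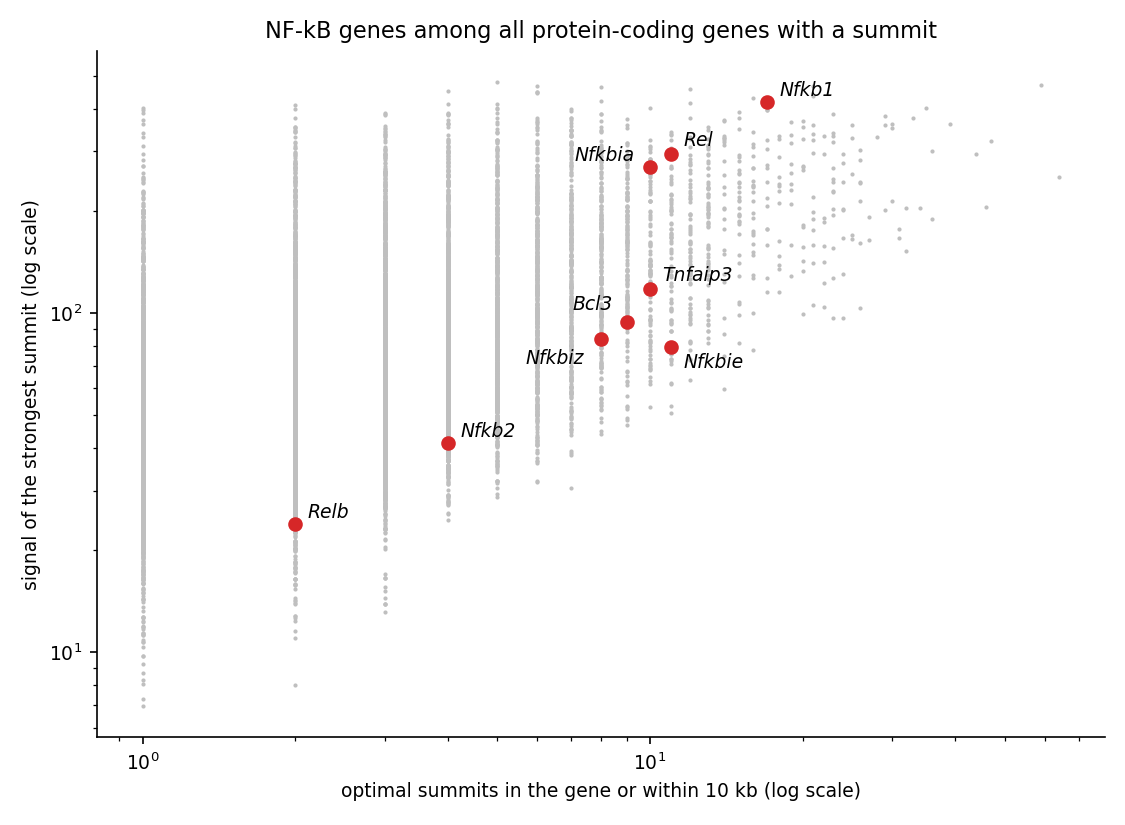
Each point is a protein-coding gene with at least 1 optimal summit, with its number of summits on the x axis and the signal of its strongest summit on the y axis (both log scales, signal in the caller's unstated unit). The 9 NF-kB genes with a summit are red and named, and run from Relb, with 2 summits and a highest signal of 23.9, to Nfkb1, with 17 and 418.8.

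Among the subunits with a transactivation domain, Rel had 11 summits with 3 in the strongest 10%, Relb had 2 weak ones and Rela had none in the optimal list. Rel encodes a subunit prominent in mature B cells. Of its summits, 4 lay upstream and 7 in the gene body, or 20.3 per 100 kb in all. Rel lies on chromosome 11, where the median over genes was 5.86 summits per 100 kb and 79.99% of genes had a summit; the part of this in the count at Rel was not tested.

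The strongest Rel summit lay 7939 bp upstream of the gene (chromosome 11, 23778815 to 23779032, mm10). Its pooled signal was 294.6, with 127.4 in replicate 1 and 170.2 in replicate 2. A pair of summits 1150 bp apart lay deep in the gene, 16503 and 17653 bp from the start. The first had a pooled signal of 213.4 (97.7 in replicate 1 and 117.0 in replicate 2) and the second of 212.0 (91.6 and 122.3). These 3 distal summits held the high signals of Rel, and each was in the conservative list, the depositors' second IDR list. That list is not a subset of the optimal list: 31856 optimal peaks have the same interval among its 35879, and at the 10 genes it held 76 summits, against 65 shared with the optimal list. The stronger of its 2 promoter summits, 474 bp upstream of the start, had 87.2 (27.3 and 60.7). A further 2 summits in the gene body, 1218 and 8086 bp from the start, had 54.6 (26.5 and 31.0) and 52.7 (22.7 and 27.0). The 5 weaker summits ran from 21.1 to 44.9. By its strongest summit Rel ranked 265 of 21627 genes.

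Relb encodes the main partner of the processed Nfkb2 product in the alternative pathway. Its 2 summits both lay near the start. The one 57 bp upstream (chromosome 7, 19629325 to 19629664) had a pooled signal of 23.9 and was matched in replicate 1 only, with 16.03. The other, 367 bp inside the gene, had 12.7 and was matched in replicate 2 only, with 13.3. Neither Relb summit was thus matched within 100 bp in both replicates. Here and below, 1 replicate only means that the other had no summit within 100 bp, not that it had no peak nearby. A match was sought in the unthresholded list of each replicate and can be to a background entry. Of the 44058 strongest peaks of each replicate, replicate 1 had 2 at Relb and replicate 2 had 1. Both optimal summits also lay within 10 kb of a neighbouring gene, and the mm9 list had no peak at Relb.

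Rela encodes the subunit of the most widely used NF-kB dimer. Its nearest optimal summit was 13352 bp from the gene, with a pooled signal of 22.3 and the start of Sipa1 as the nearest gene start. The absence from the optimal list was not shared by the other lists. The conservative list and the pooled relaxed list, the unthresholded input to IDR, held the same peak 65 bp upstream of Rela (chromosome 19, 5637207 to 5637546, mm10), with a signal of 30.8 and a rank of 33361 of 300000 in the pooled list. Replicate 1 had a peak of 10.4 at 71 bp upstream and one of 17.1 at 803 bp upstream, and replicate 2 had one of 22.4 at 35 bp inside the gene. The mm9 list held 1 peak at Rela, 15 bp upstream, with a signal of 48.2 on its own scale. Both replicates therefore had a weak peak at the Rela start, and its place among the 9 or the 10 genes depended on the list.

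**Figure D2:**
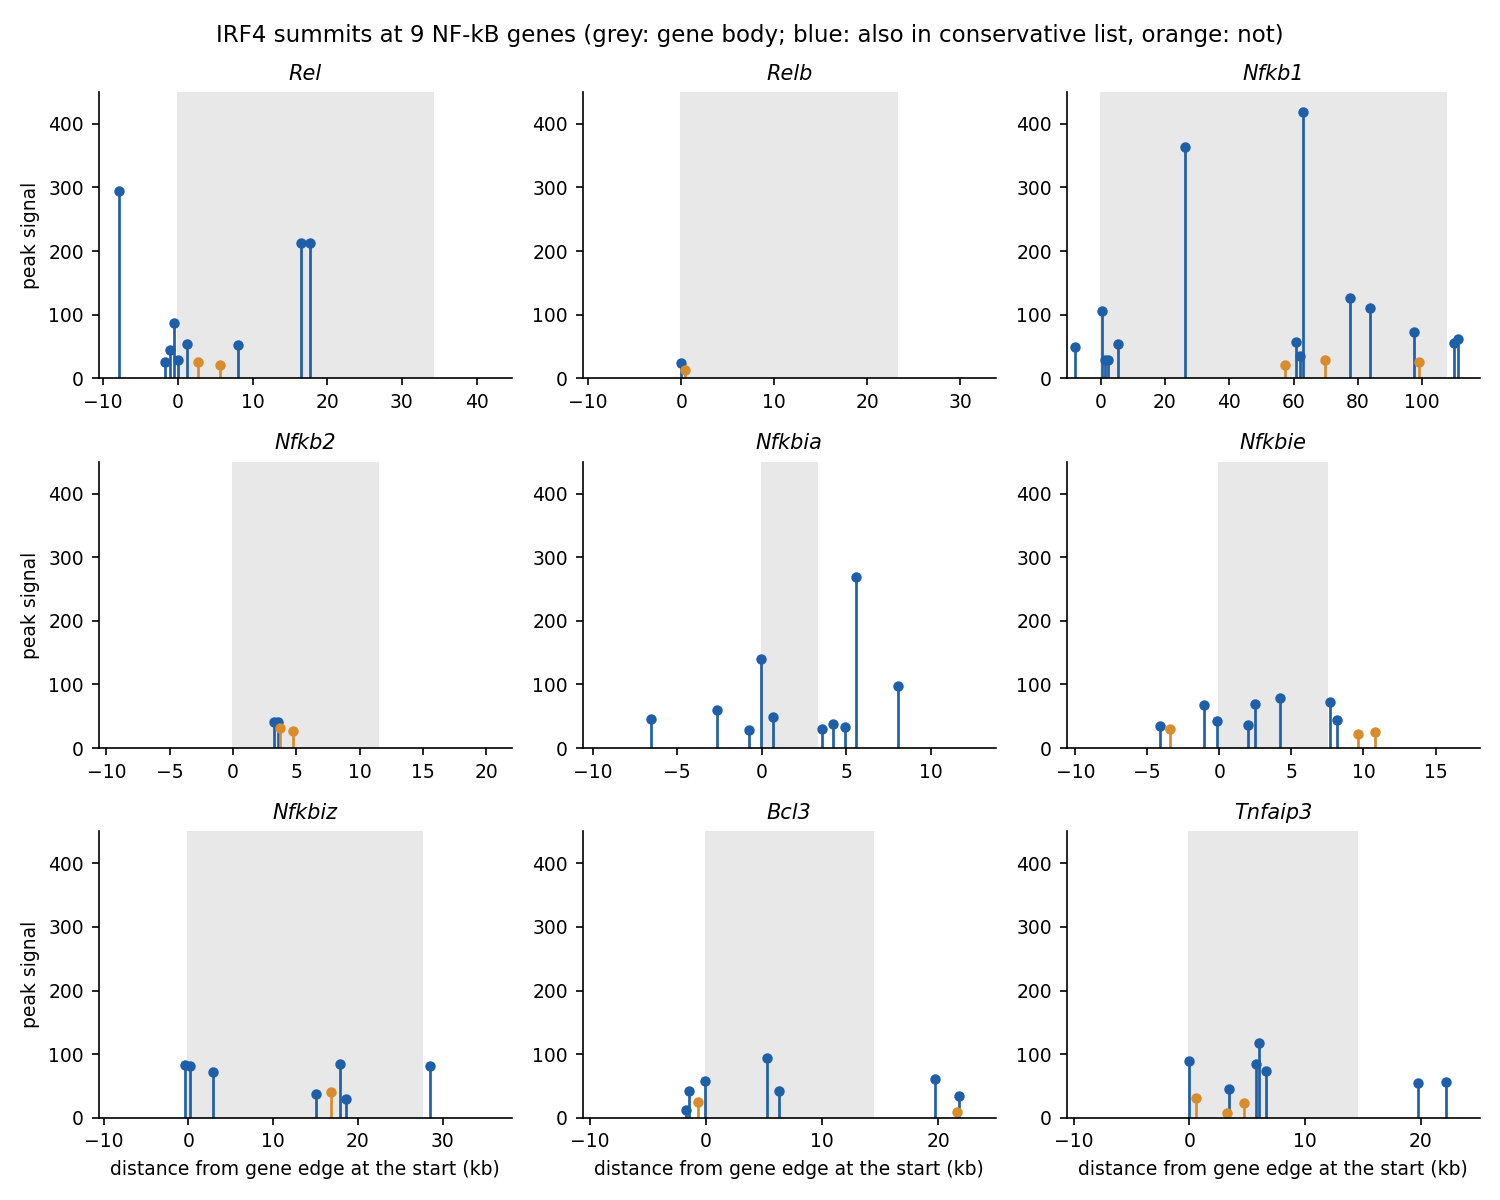
Each panel shows 1 gene with an optimal summit, with the distance from the gene edge at its start in kb on the x axis and the pooled peak signal on the y axis. Lines with points are summits (blue in the conservative list, orange not) and grey is the gene body; the 3 highest points are 2 summits inside Nfkb1 and 1 upstream of Rel.

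Of the precursor genes, Nfkb1 had the most and strongest summits of all 10 genes, and Nfkb2 had 4 weak ones at its starts. Nfkb1 had 17 summits, with 14 in the gene body, over a gene of 107315 bp. Per 100 kb this came to 13.4, below the median of the 10 genes. The strongest summit lay 62962 bp into the gene (chromosome 3, 135628852 to 135629146, mm10). Its pooled signal was 418.8, with 199.7 in replicate 1 and 222.9 in replicate 2. It ranked 13 of 44058 in the optimal list, and Nfkb1 ranked 14 of 21627 genes by its strongest summit. The second lay 26094 bp into the gene (135665752 to 135666008) with 363.2 (160.0 and 200.7) and ranked 77. These 2 stood well above the other summits of the gene. The next 4 were 126.4 (54.6 and 71.3), 111.0 (50.5 and 67.1), the promoter summit 459 bp inside the gene with 105.3 (48.0 and 57.3), and 73.5 (38.3 and 33.7). The other 11 ran from 21.5 to 62.2. Of these, 2 lay downstream of the gene nearest to the start of Manba, a lysosomal mannosidase gene, though 95098 and 96355 bp from it.

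At Nfkb2 all 4 summits lay within 1 kb of a RefSeq start of the gene, 3269 to 4746 bp from the outer gene edge. They were 474 bp upstream of the nearest start with a pooled signal of 41.4 (23.1 in replicate 1 and 19.9 in replicate 2), 226 bp upstream with 40.4 (25.8, replicate 1 only), 16 bp upstream with 30.9 (9.88 and 21.0) and 45 bp inside with 27.2 (replicate 2 only, 22.3). The group was weak, with every signal at or below the median of the list. The first 3 were spaced 210 and 248 bp apart, closer than the peak width of 340 bp, so the peaks overlap. Whether they are separate binding sites was not tested. All 4 also lay within 10 kb of a neighbouring gene.

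The cytoplasmic inhibitors had the densest summits of the 10 genes. Nfkbia, the gene of IkB alpha, had 10 summits around a gene of 3239 bp, or 43.0 per 100 kb, rank 16 of 21627 genes. Its strongest summit lay downstream, 5569 bp from the start (chromosome 12, 55486976 to 55487201, mm10) and reached 269.6 (127.3 in replicate 1 and 143.8 in replicate 2). The promoter summit 50 bp upstream of the start had 139.8 (55.1 and 84.8). It was the strongest of the 21 promoter summits of the 10 genes and the only one in the strongest 10%. The next 4 were 97.97 (46.4 and 47.6) at 8055 bp, 59.6 (26.0 and 31.1) at 2624 bp upstream, 48.4 (20.8 and 30.5) at 689 bp inside, and 46.2 (26.5 and 21.0) at 6565 bp upstream. The other 4 ran from 28.4 to 37.9. All 10 were in the conservative list.

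Nfkbie, the gene of IkB epsilon, had 11 summits, or 40.0 per 100 kb (rank 25), all of moderate or low signal. The 6 strongest were 79.3 (32.6 in replicate 1 and 44.4 in replicate 2) inside the gene, 71.7 (25.9 and 50.8) downstream, 69.7 (27.2 and 44.8) inside, 67.5 (38.2 and 34.1) at 1093 bp upstream, 44.3 (15.8 and 29.1) downstream and 43.1 (13.3 and 32.0) at 178 bp upstream, the promoter summit. The other 5 ran from 22.0 to 36.9. All 11 were matched in both replicates. The surroundings hold several genes: 7 of the 11 summits were nearest to another gene's start, 5 to that of Slc35b2, the gene of a transporter of activated sulfate, and 2 to that of Tmem151b. The summits of 71.7 and 44.3 lay 538 and 37 bp upstream of the Slc35b2 start, so they are promoter summits of that gene.

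Neither nuclear inhibitor gene had a summit in the strongest 10%. Nfkbiz encodes IkB zeta, a cofactor that NF-kB needs at a set of secondary response genes. It had 8 summits, or 16.8 per 100 kb, on chromosome 16, where the median over genes was 3.79. Its 5 strongest lay close together in signal: 84.2 (28.8 in replicate 1 and 61.9 in replicate 2) at 17912 bp into the gene, 83.7 (32.0 and 49.4) at 367 bp upstream, 82.2 (39.3 and 41.5) downstream, 81.3 (35.9 and 49.2) at 125 bp inside and 72.1 (29.6 and 45.6) at 2955 bp inside. The sixth, 41.3, leaned most towards replicate 1 of all matched summits at these genes, with 30.1 against 12.9 in replicate 2, and was not in the conservative list. The other 2 had 37.0 and 29.5.

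Bcl3 encodes a nuclear protein that binds dimers of the processed Nfkb1 and Nfkb2 subunits. It had 9 summits, or 26.2 per 100 kb. The strongest lay inside the gene, 5306 bp from its edge (chromosome 7, 19817348 to 19817687, mm10), with 93.96 (38.8 in replicate 1 and 54.4 in replicate 2). A downstream summit of 60.3 (27.7 and 32.8) was nearest to the start of Cblc, a ubiquitin ligase gene, and the promoter summit 28 bp upstream had 57.6 (29.2 and 32.9). The next 3 were 42.8 (16.1 and 35.7) in the gene, 41.7 (replicate 1 only, 23.5) at 1463 bp upstream and 33.6 (13.7 and 24.3) downstream. The other 3 ran from 9.62 to 24.5. In all, 3 downstream summits of Bcl3 were nearest to Cblc. The 9 summits included 4 that had a neighbour within 340 bp, and 4 were matched in 1 replicate only.

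Tnfaip3 had 10 summits, or 29.0 per 100 kb, with a cluster in the gene body. The strongest lay 6003 bp from the gene edge (chromosome 10, 19009237 to 19009576, mm10) and reached 117.6 (55.1 in replicate 1 and 72.6 in replicate 2), just inside the strongest 10%. A second summit 202 bp from it had 83.9 (34.9 and 47.9), and the peaks overlap. The promoter summit 57 bp upstream of the start had 90.1 (38.9 and 53.9), a further one in the cluster had 72.9 (26.1 and 46.6), and 2 downstream summits had 56.5 (19.9 and 37.6) and 54.1 (24.8 and 28.4). The other 4 ran from 8.25 to 45.1. Replicate 2 was higher at all 9 matched Tnfaip3 summits.

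Within 1 kb of their own starts, 9 of the 10 genes had a summit, beside 35% of 20920 genes with a start in the annotation. Of the 82 summits, 21 (25.6%) lay there, against 20% of all optimal summits near any gene start. The promoter summits were weaker than the rest. They ran from 8.25 to 139.8 with a median of 41.4 and 1 in the strongest 10%. The 61 farther summits ran from 9.62 to 418.8 with a median of 52.7 and 8 in the strongest 10%. The optimal list as a whole had the same order, with medians of 37.3 and 42.7. The summits of the strongest 10% at Rel and Nfkb1 were therefore away from the promoter, and Nfkbia had one at both places. At Tnfaip3 the split was slight. Its strongest summit, 2556 bp from the nearest own start, had 117.6, just above the edge of 116.0, and its promoter summit had 90.1.

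Matches were sought in the unthresholded list of each replicate, with 215095 and 300000 entries, so a match can be to a background entry. The replicates were matched in both at 67 of the 82 summits (81.7%), beside 85.4% of all optimal summits. A further 8 were matched within 100 bp in replicate 1 only and 7 in replicate 2 only, and the strongest of these 15 had a pooled signal of 44.9. The count depended on the distance: 55 of the 82 were matched in both within 50 bp and 80 within 250 bp. Most of the 15 thus had a summit of the other replicate within 250 bp. The signal was higher in replicate 2 at 55 of the 67 (82.1%), beside 82.8% of all matched summits. The median log2 ratio of replicate 2 to replicate 1 was 0.42 (SD 0.53, range -1.22 to 1.63), and over all matched summits it was 0.53 (SD 0.66). The shift towards replicate 2 at these genes was thus of the size seen in the whole list. Scale and depth of the 2 replicate lists are unknown, and their part in the shift was not tested. By gene the median ratio ran from 0.25 at Nfkbia to 0.84 at Tnfaip3. Of the 82 summits, 65 (79.3%) were in the conservative list, beside 72.3%, and 11 (13.4%) had a neighbouring summit within 340 bp, beside 11.9%.

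**Figure D3:**
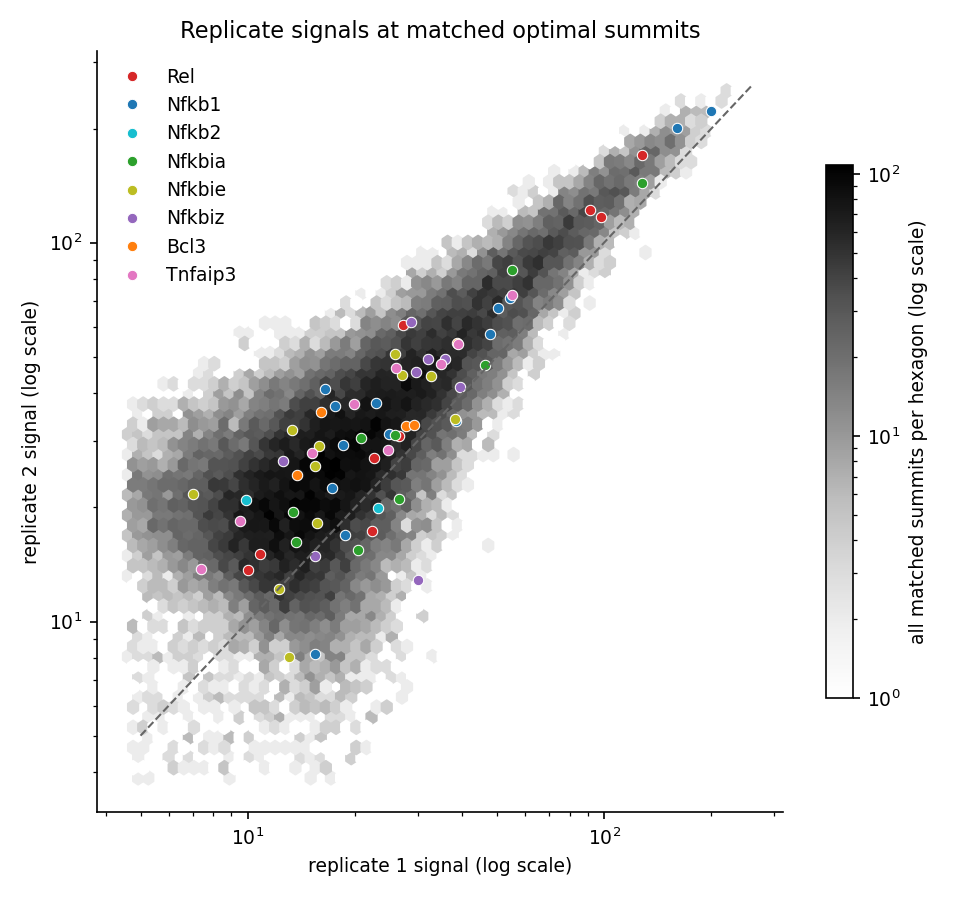
Signal in replicate 1 (x axis) and replicate 2 (y axis), both on log scales, at optimal summits matched in both replicates. Coloured points are the 67 summits of 8 NF-kB genes, grey hexagons are all 37635 matched summits with darker grey for more, and the dashed line is equality; 55 coloured points lie above it.

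In the mm9 list 56 peaks lay at 9 of the 10 genes, all but Relb. GENCODE annotation of mm9 put 25 in introns, 25 between genes and 6 in exons. A match to the NF-kB site lay within 50 bp of 12 of the 56 summits (21.4%), beside 5.7% of all 27671 peaks. In windows 300 bp away it was found at 0 of the 56, beside 1.12% of all peaks. The matches were spread over 8 genes: Rel, Nfkb1, Nfkb2, Nfkbia, Nfkbie, Nfkbiz, Tnfaip3 and Bcl3. Over all genes with a peak, 11.7% had a peak with such a match, and 36.9% of genes with 5 to 14 peaks, the range of 7 of the 9 genes. The match was more common in peaks within 1 kb of the own start (6 of 11) than in the other peaks (6 of 45), while over all peaks it was at 4.13% near a start and 5.95% farther away.

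The NF-kB matches had several forms. All started with GGG and ended in CC, with varied letters between, as in GGGGGTTTCC under Nfkbie peak 4. A match is to this loose pattern, and binding of NF-kB there was not tested. Under the strongest Bcl3 peak, in an intron, the match was GGGATTTCCC, 20 to 29 bp from the summit. Under the strongest Tnfaip3 peak, also in an intron, it was GGGGAATTCC on the minus strand, 39 to 48 bp from the summit. The summit of Nfkbia peak 5, in an intron, lay on the first base of GGGACTTTCC, and Nfkbia peak 3, downstream of the gene, held GGGAAATTCC on the minus strand. The second Rel peak held 2 overlapping matches on opposite strands at the far edge of its window. With windows of 25 bp either side the match was at 6 of the 56, beside 2.7% of all peaks.

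IRF elements were not more common at these genes. EICE, ISRE or an AP-1-IRF element was within 50 bp of 6 of the 56 summits (10.7%), beside 16% of all peaks. EICE, which IRF4 binds with PU.1 or Spi-B, was at 5 (8.93%), beside 8.68%: under 2 peaks each of Rel and Nfkb1 and 1 of Nfkbie. The strongest Rel peak, 7928 bp upstream on mm9, held GGAACTGAAA 6 to 15 bp from its summit. The second Nfkbie peak held the same 10 bases 17 to 26 bp from its summit on the other side. That peak lay downstream of Nfkbie, 7658 bp from the gene edge at the start. The optimal summit 7675 bp from that edge on mm10 is a promoter summit of Slc35b2. ISRE was at 1 (1.79%), beside 5.79%, as GAAACTGAAA on the minus strand under the strongest Nfkbia peak.

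The AP-1-IRF elements were at 0 of 56, both in the form with GAAA directly before TGANTCA (1.13% of all peaks) and in that with TTTC 4 bases before it (1.12%). The AP-1 site itself was at 5 (8.93%), beside 16%. The site of PU.1, GAGGAAGT, was at 2 (4.93% of all peaks), GGAAGTGA at 3 (6.81%), the ETS site CCGGAAGT at 1 (1.21%), the RUNX site TGTGGT at 2 (13%), the octamer ATGCAAAT at 1 (2.61%) and the E-box CAGCTG at 5 (8.72%). These motifs can overlap, as GGAAGTGA does with EICE, and all were searched on both strands. None of the 12 motifs was found at 28 of the 56, beside 46.1% of all peaks. The strongest peaks of Nfkb1 were among these. Its first, in an intron with a signal of 1284 and rank 8 in the mm9 list, and its second, also in an intron, with 814.7 and rank 76, held none of the 12. Of the 100 strongest mm9 peaks, 26 held none. No match says only that these letters were not in the window.

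**Figure D4:**
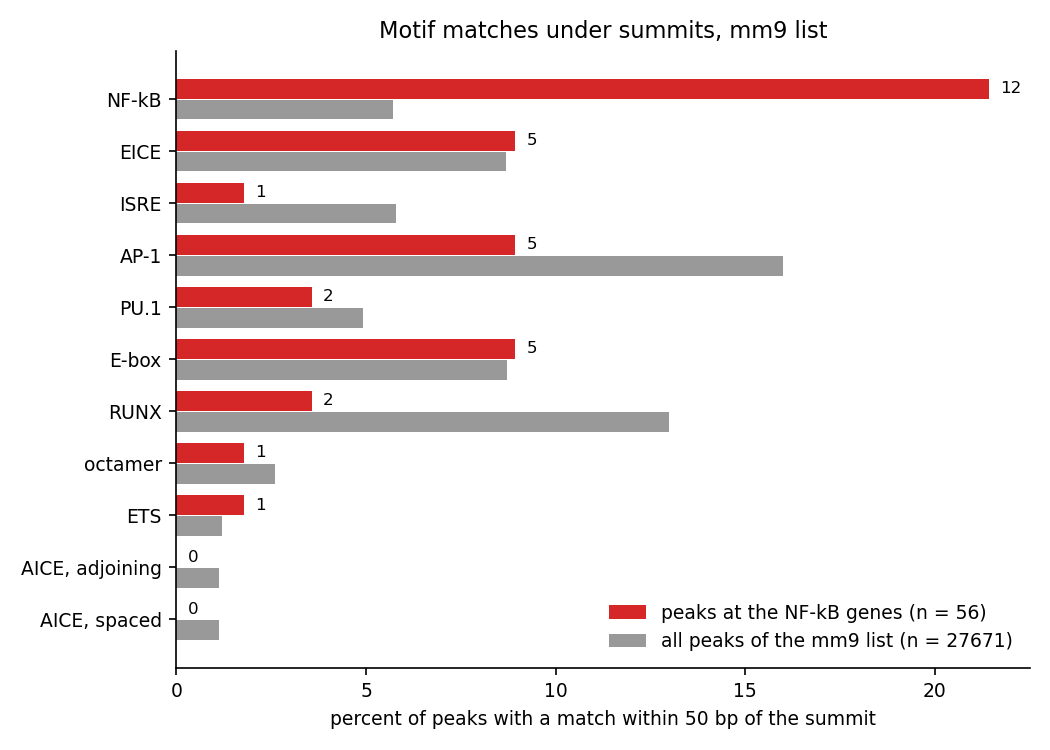
Percent of mm9 peaks with a motif match within 50 bp of the summit, for the 56 peaks at the NF-kB genes (red, with the number of peaks) and for all 27671 peaks (grey), for 11 of the 12 motifs. The NF-kB site is at 12 of the 56 (21.4%) against 5.7%, while EICE is at 5 (8.93%) against 8.68%.

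Promoter sequences of RefSeq (GRCm38) were found for 7 of the 10 genes, and not for Relb, Nfkb1 and Nfkbiz. They gave 10 promoters, each the 250 bases before a start, with 3 starts of Nfkb2 (the windows of its 2 inner starts overlap) and 2 of Tnfaip3. An NF-kB match was in 7 of the 10, beside 3.92% of 32609 promoters. The 5 genes with a match were Rel, Nfkb2, Nfkbia, Nfkbie and Tnfaip3, while Rela and Bcl3 had none. The GC content of the 10 was 46.4% to 77.6%, against a median of 52.4% over all promoters; its part in the result was not tested. The promoters shown are those of Nfkb2 at its first start, with 2 separate NF-kB places (0.144% of promoters have 2 or more), and of Nfkbia and Nfkbie, with 1 each. They are written 5′ to 3′ on the strand of the gene, ending at the base before the start, with NF-kB matches in capitals.
Nfkb2 promoter (chr19:46304487-46304736, plus strand): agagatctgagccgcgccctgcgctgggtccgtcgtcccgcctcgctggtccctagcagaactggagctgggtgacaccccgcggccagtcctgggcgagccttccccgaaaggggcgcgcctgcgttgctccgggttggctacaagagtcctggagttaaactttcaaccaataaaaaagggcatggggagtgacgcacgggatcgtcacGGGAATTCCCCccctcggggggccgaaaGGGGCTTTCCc
Nfkbia promoter (chr12:55492648-55492897, minus strand): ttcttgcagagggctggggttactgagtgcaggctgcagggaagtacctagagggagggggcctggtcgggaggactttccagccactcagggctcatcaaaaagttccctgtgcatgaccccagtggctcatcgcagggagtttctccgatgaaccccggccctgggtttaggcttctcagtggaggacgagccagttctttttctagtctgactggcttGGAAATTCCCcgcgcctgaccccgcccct
Nfkbie promoter (chr17:45555450-45555699, plus strand): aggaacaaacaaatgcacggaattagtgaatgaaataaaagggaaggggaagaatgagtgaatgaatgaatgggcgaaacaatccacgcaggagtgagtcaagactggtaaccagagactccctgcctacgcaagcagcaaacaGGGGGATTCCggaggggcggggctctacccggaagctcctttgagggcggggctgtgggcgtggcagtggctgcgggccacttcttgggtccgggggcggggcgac

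An IRF4 summit lay on or beside each of these. At Nfkbia the NF-kB match 20 to 29 bases before the start lay between the start and the promoter summit of 139.8, 50 bp upstream. In the mm9 list the summit of this promoter peak was 83 bp upstream, and none of the 12 motifs lay within 50 bp of it. At Nfkb2 the matches lay within 39 bases of the start, next to the summit of 30.9 at 16 bp upstream. At Nfkbie the match 97 to 106 bases before the start lay between the start and the summit of 43.1 at 178 bp upstream, and the same bases appear in the mm9 window of Nfkbie peak 7, together with an AP-1 site. At Rel the match GGGAAATCCC lay 83 to 92 bases before the start. The nearer promoter summit, 71 bp inside the gene, had 29.0, and the stronger one of 87.2 was 474 bp upstream. Tnfaip3 had GGGACACCCC 116 to 125 bases before its outer start and GGGGATTTCC on the minus strand 3 to 12 bases before it, on both sides of the summit of 90.1 at 57 bp upstream. EICE and ISRE were in 0 of the 10 promoters, beside 2.32% and 2.99% of all promoters.

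The wider pathway was described from a list of 30 other genes: kinases and their adaptors, ubiquitin ligase components, further IkB genes and negative regulators. Of these, 28 had an optimal summit, and 9 had one in the strongest 10% (beside 62.3% and 12.4% of all genes). They had fewer summits than the 10 genes, with a median of 2.5 a gene, and 2 of the 30 had 10 or more. The median of their strongest signals was 59.9, against 89.1 for the 10 genes and 36.0 for all genes. All 11 kinase and adaptor genes had a summit, but only Chuk had one in the strongest 10%. Some of the 11 had 1 summit only. The strongest summit of several, Chuk among them, was nearest to the start of another gene. No summit was found at Tax1bp1 and Rnf11, which encode partners of the Tnfaip3 product.

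The 4 strongest of the 30 were Tnip3, Ube2v1, Chuk and Nfkbid. Tnip3, which encodes a binding partner of the Tnfaip3 product, had 224.9 (111.0 in replicate 1 and 113.5 in replicate 2), 3990 bp from its start. Ube2v1, the gene of a ubiquitin-conjugating enzyme variant, had 211.5 (80.2 and 130.4), 340 bp from its start. Chuk, the gene of IKK alpha, had 205.8 (88.7 and 119.8), but this summit lay 40014 bp from its start and was nearest to that of Erlin1. Nfkbid, a further nuclear IkB gene, had 199.2 (94.2 and 103.6), 88 bp from its start. These summits were of the size of the 2 summits inside Rel that are 1150 bp apart, and below the 2 strongest of Nfkb1.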

How the data were processed

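The analysis used 6 lists of peaks in narrowPeak format from 2 ChIP-seq replicates of 1 group. Per the deposited descriptions, the relaxed lists on mm10 (replicate 1, 215095 peaks; replicate 2 and both pooled, 300000 each) were made from alignments and 1 further file, the optimal (44058) and conservative (35879) IDR lists from these, and the mm9 list (27671) from the mm9 alignments of both replicates. Caller, aligner and depth: not given in the sources used here. Therefore no counting interval is given. The signal of each peak is the value deposited by the authors, on an unstated scale. A further deposited column, read here as a score because some lists hold values below 0 in it, was not used.

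Summits were peak start plus offset. Genes came from RefSeq GRCm38, with every RefSeq start of a gene where listed. Replicate signals were those of the nearest summit within 100 bp in the relaxed list of that replicate. Motifs were searched on mm9 and coordinates were not converted. Sequences came from the mm9 genome and the RefSeq promoter table (GRCm38.p6). The genes, lists and motifs were chosen with earlier results of these data known, so no test was made. The genes named are the 10, the 4 other pathway genes with the strongest summit, those with none, and genes whose start is nearest to a summit of the 10; Sipa1 and Erlin1 were named after their values were seen. Scripts were tested on simulated data. Python 3.11.15, numpy 2.4.6, pandas 2.3.3 and matplotlib 3.10.9 were used.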

Additional observations from a re-analysis of the deposited data

How the results depend on the processing

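The number of the 10 genes with a summit was 7 with only the optimal peaks above the median signal (without Rela, Relb and Nfkb2), 9 as reported and 10 in the conservative list, with flanks of 50 kb and with either replicate alone. Counts of summits followed the window and the list. In the gene body alone there were 45 summits, 12 of them within 1 kb of a start and 37 matched in both replicates. With flanks of 50 kb there were 152 summits and 127 matched in both. Above the median signal there were 47 summits and 10 within 1 kb of a start, and with a promoter distance of 2500 bp the latter were 33. With 1 replicate left out, the strongest peaks of the other gave 78 and 90 summits, 19 within 1 kb of a start in both cases, and 10 genes in both. An NF-kB match was at 6 of 56 peaks with windows of 25 bp (2.7% of all peaks) and at 18 of 56 with 100 bp (9.23%). An IRF element was at 3 of 56 with windows of 25 bp (10.4% of all peaks), at 3 of 31 in the gene body alone and at 14 of 106 with flanks of 50 kb (16% of all peaks for both).

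Taking only summits whose nearest start was that of the gene, an alternative chosen after seeing the data, left 70 summits at 9 genes, and using the gene edge as the only start left 15 within 1 kb of a start. Summits matched in both replicates were 55 with a match distance of 50 bp and 80 with 250 bp. The median replicate ratio (log2) was 0.40 to 0.42 in each setting tried. No paired analysis was possible because the study has 1 group. The depth of the libraries is unknown. A weak summit matched within 100 bp in 1 replicate only, as at Relb, therefore cannot be set against sampling noise. Binding near a gene was measured, not expression of the gene, and a summit can belong to a neighbouring gene.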
